A study of Mus musculus with 6 samples.

Results

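The imprinted gene loci studied here were 8 intervals of the mouse genome (build mm9) that hold H19 and Igf2, Dlk1 and Meg3, Igf2r, Peg3, Snrpn, Grb10, Mest and Peg10. Members were all peaks of 6 peak lists that shared at least 1 bp with 1 of these intervals. They numbered 354 of the 663518 peaks in the 6 lists, over 620 kb of DNA. A peak is a stretch of DNA that the authors' peak caller found enriched after precipitation with an antibody against 5-hydroxymethylcytosine (5hmC) or 5-methylcytosine (5mC). By list, members numbered 24 of 42301 fibroblast 5hmC peaks, 42 of 116087 day-3 5hmC peaks, 89 of 174079 iPS 5hmC peaks, 67 of 104011 fibroblast 5mC peaks, 78 of 165869 day-3 5mC peaks and 54 of 61171 iPS 5mC peaks.

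Cells of 3 stages of a Tet1-based reprogramming system were compared, all of the strain OG2-GFP/Rosa26-M2rtTA. The first stage was fibroblasts at passage 4, taken from mice made with TSKM-iPS cells. The second was the same kind of fibroblasts at passage 4 after 3 days in embryonic stem cell medium with doxycycline, the drug that switches on the induced factors (day 3). The third was 1 line of induced pluripotent stem (iPS) cells of this system, named in the labels by its factors Tet1, Sox2, Klf4 and c-Myc, at passage 10 to 15. The iPS cells grew on mitomycin C treated feeder fibroblasts, which the labels say were reduced by a short plating step, and the share of feeder DNA left was not tested. There was 1 library per stage and mark, so no replicate error exists, no test between stages was possible and no p-values are given. The depth of each library is unknown. In such bulk DNA, fewer cells with a mark and a weaker mark per cell cannot be told apart, and the 2 parental copies were not separated.

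Imprinted genes are expressed from 1 parental copy. Each such cluster is controlled by a stretch of DNA that is methylated on only 1 parental chromosome, a mark set in the egg or the sperm and kept in body cells after fertilisation. In H19/Igf2 and Dlk1/Meg3 the controlling stretch is known to be methylated on the paternal copy. In Igf2r, Peg3, Snrpn, Grb10, Mest and Peg10 it is known to be methylated on the maternal copy. Tet enzymes, of which Tet1 is 1, oxidise 5mC to 5hmC, and loss of methylation at imprinted loci is a known hazard of pluripotent cell culture. No mm9 annotation was used here, so peaks were not assigned to promoters, exons or the controlling stretches, and the intervals were not checked against gene positions.

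Antibody capture rises with the number of CpG dinucleotides in a fragment that carry the mark. Promoters of 3 genes whose maternally methylated stretch is known to include a promoter are therefore shown, with each CpG in capitals. The sequences do not show which CpG carried a mark. They come from RefSeq on the build GRCm38.p6, 250 bases before to 50 bases after the start, written 5′ to 3′ on the gene's strand. Where a gene had several listed starts, the one with the most CpG is shown. These positions are not on the build of the peaks and cannot be set beside them.
Mest (chr6:30737800-30738099, + strand): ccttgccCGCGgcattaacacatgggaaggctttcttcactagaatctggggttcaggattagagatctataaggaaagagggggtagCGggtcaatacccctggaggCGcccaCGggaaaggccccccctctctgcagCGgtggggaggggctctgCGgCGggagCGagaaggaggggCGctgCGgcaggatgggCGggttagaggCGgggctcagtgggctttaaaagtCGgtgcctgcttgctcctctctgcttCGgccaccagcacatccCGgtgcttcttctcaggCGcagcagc
Peg3 (chr7:6730370-6730669, - strand): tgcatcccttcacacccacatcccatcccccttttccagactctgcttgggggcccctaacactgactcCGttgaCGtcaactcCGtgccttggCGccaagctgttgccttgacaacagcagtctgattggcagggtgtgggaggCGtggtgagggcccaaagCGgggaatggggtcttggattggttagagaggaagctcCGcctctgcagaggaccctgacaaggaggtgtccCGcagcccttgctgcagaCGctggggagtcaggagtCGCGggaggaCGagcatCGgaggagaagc
Snrpn (chr7:60005150-60005449, - strand): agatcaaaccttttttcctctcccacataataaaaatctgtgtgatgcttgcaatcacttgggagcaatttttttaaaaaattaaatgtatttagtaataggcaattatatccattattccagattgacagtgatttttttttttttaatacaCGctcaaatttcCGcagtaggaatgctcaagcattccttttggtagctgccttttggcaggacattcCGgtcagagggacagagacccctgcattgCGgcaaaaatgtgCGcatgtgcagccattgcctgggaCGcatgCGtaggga
Mest had 17 CpG in these 300 bases, Peg3 had 13 and Snrpn had 7. The share of all 32851 listed promoters with as many or more was 31.4%, 37.9% and 52.1% in the same order. Of the 10 genes, 8 had a listed promoter. The highest numbers were those of Grb10, with 45 CpG (as many or more in 1.93% of promoters), and of Igf2r, with 34 (7.73%). Igf2 had 24, Meg3 had 13 and Dlk1 had 9. H19 and Peg10 were the other 2 genes.

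Both marks covered more of the imprinted intervals than of the genome at each stage. 5hmC peaks covered 3.88% of the intervals in fibroblasts, 6.91% on day 3 and 15.7% in iPS cells. Over the span of the genome that the lists reach, 5hmC covered 1.39%, 4.94% and 7.24% at the same stages. 5mC peaks covered 14.0% of the intervals in fibroblasts, 16.7% on day 3 and 9.68% in iPS cells. The genome values for 5mC were 4.30%, 6.60% and 2.32%. The share of the intervals covered by 5hmC was thus 2.17 times that of the genome in iPS cells and 2.78 times in fibroblasts. The share covered by 5mC was 4.18 times that of the genome in iPS cells and 3.27 times in fibroblasts. No set of regions with like CpG content was compared, and its part in the result was not tested.

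**Figure D1:**
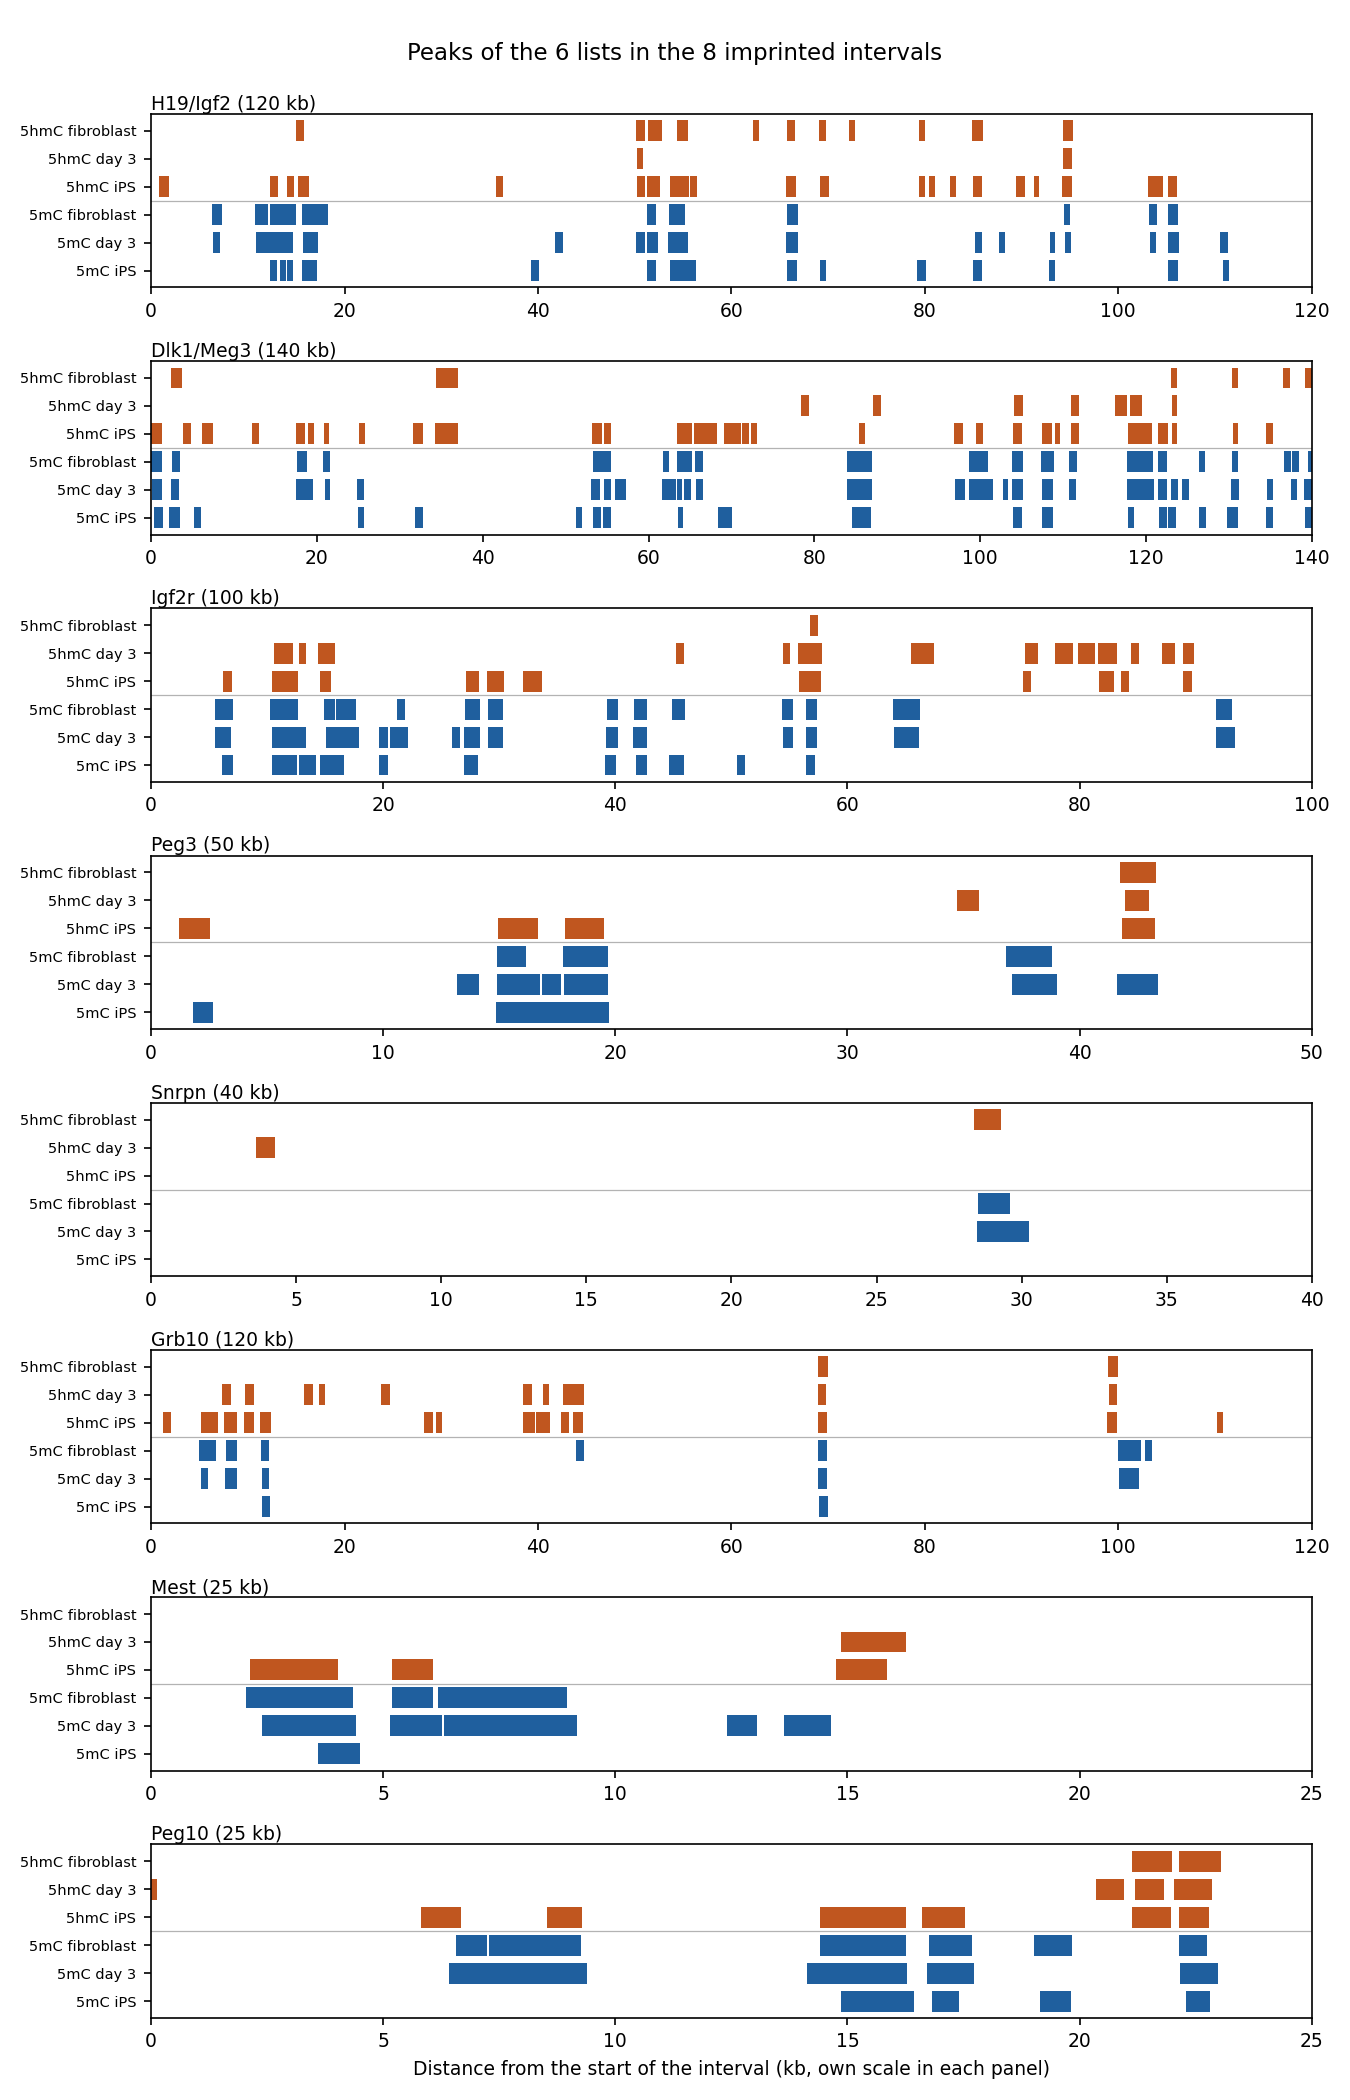
Peaks of the 6 lists along each interval, with the distance from the start of the interval in kb on the horizontal axis (own scale in each panel) and 1 row per list, 5hmC in orange above 5mC in blue. Each bar is 1 peak, trimmed at the interval's border. The Snrpn rows for iPS cells are empty, and the iPS 5mC rows of Grb10 and Mest hold 2 peaks and 1 peak.

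In 7 of the 8 intervals 5hmC covered more base pairs in iPS cells than in fibroblasts, and in 7 intervals 5mC covered fewer. Both directions were also the usual ones across the genome: of the 100 kb windows in which the lists differed, 79.3% had more 5hmC and 86.1% had less 5mC in iPS cells than in fibroblasts. The exception for 5hmC was Snrpn, with 0 kb in iPS cells against 0.92 kb in fibroblasts. The exception for 5mC was Peg3, with 5.67 kb in iPS cells against 5.18 kb in fibroblasts, and it was none among peaks scoring 100 or more (-0.34 kb, iPS cells minus fibroblasts), where all 8 intervals had less 5mC in iPS cells. On day 3 5mC covered more than in fibroblasts in 7 intervals, against 91.8% of windows, and 5hmC in 6, against 73.1% of windows. From day 3 to iPS cells 5mC covered less in all 8 intervals, against 96.6% of windows. 5hmC covered more in iPS cells than on day 3 in 6 intervals, against 62.5% of windows. The counts of intervals are therefore near the background. With each list cut to its 42301 best-scoring peaks, the difference turned round for 5hmC at H19/Igf2 (-2.94 kb, iPS cells minus fibroblasts) and for 5mC at Dlk1/Meg3 (1.13 kb) and H19/Igf2 (0.62 kb).

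**Figure D2:**
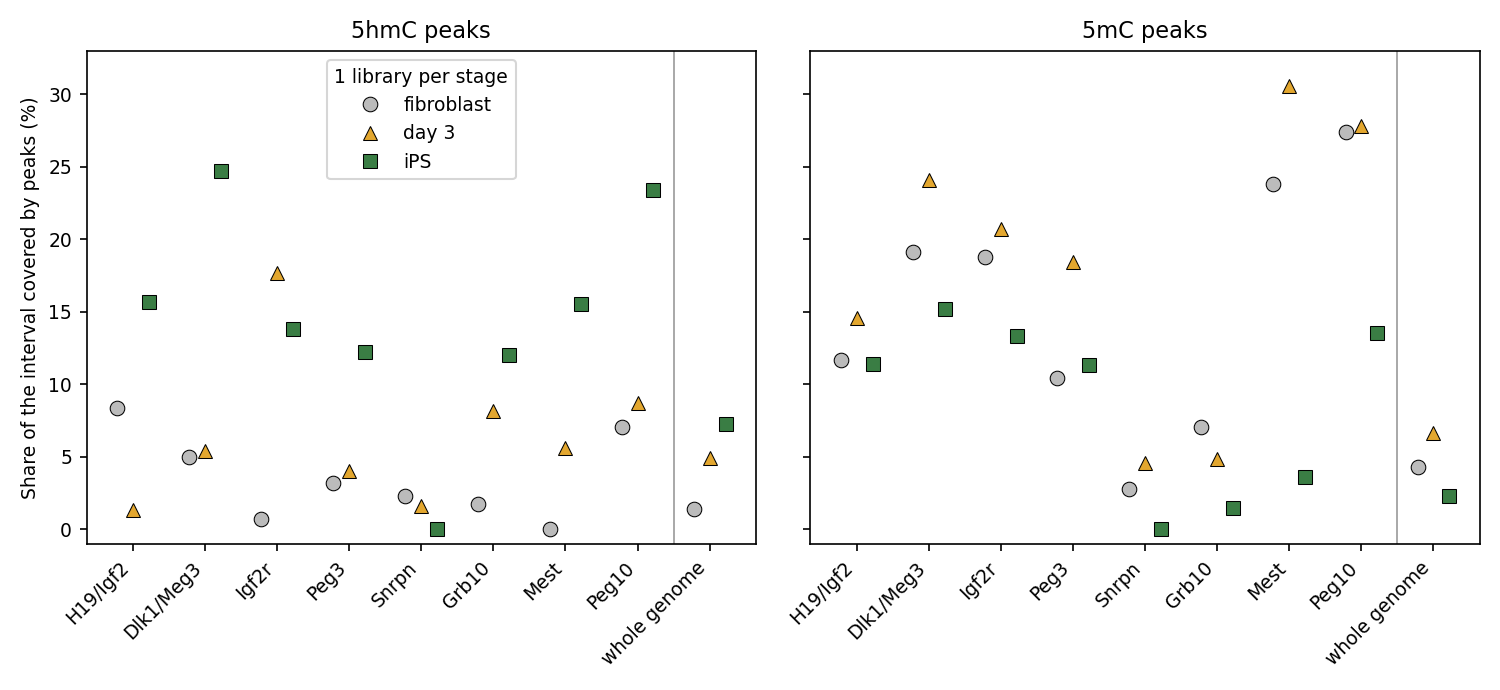
Share of each interval covered by peaks, in percent, for 5hmC (left) and 5mC (right), with 1 point per library for fibroblasts, day 3 and iPS cells. The last column gives the genome. The iPS squares lie above the fibroblast circles for 5hmC in each interval but Snrpn, and below them for 5mC in each interval but Peg3.

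The paternally methylated locus H19/Igf2 had a different course for each mark. H19 is a long noncoding RNA made from the maternal copy, and Igf2 is a fetal growth factor made from the paternal copy. 5hmC covered 10001 bp of its 120 kb in fibroblasts, 1562 bp on day 3 and 18880 bp in iPS cells. The fibroblast value was high for that list, as 0.849% of windows of 120 kb had as much. On day 3, 62.5% of windows had as much, and in iPS cells 20.5% had. Of the 11 fibroblast 5hmC peaks, 2 had a counterpart on day 3 and 9 had one in iPS cells. Over the whole fibroblast list 35.9% of peaks overlapped a day-3 peak and 63.7% an iPS peak. The best fibroblast 5hmC peak of the interval, on chromosome 7 from 149834885 to 149835972, scored 630.95, which put it in the top 1.70% of its list. An iPS 5hmC peak with a score of 593.06 (top 2.51%) lay on it, and no day-3 5hmC peak did.

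5mC in the same interval covered 14.00 kb in fibroblasts, 17.49 kb on day 3 and 13.73 kb in iPS cells, and 3.97% of windows of this length had as much in the iPS list. The best-scoring fibroblast 5mC peak, from 149762288 to 149765022, had a score of 725.04 (top 1.04%) and was listed at all 3 stages. The next one, from 149765576 to 149768245, scored 300.19 in fibroblasts (top 6.61%). Its counterparts scored 154.78 on day 3 (top 33.1%) and 269.87 in iPS cells (top 2.22%). With overlapping peaks of both marks they joined into a region of 7500 bp, from 149760746 to 149768245. It was the longest joined region in the 8 intervals with 5mC peaks at every stage. Only 5hmC peaks bridged the gap between these fibroblast 5mC peaks, so 5mC did not span the region at any stage.

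Dlk1/Meg3, the other paternally methylated locus, held the most iPS 5hmC peaks of the 8 intervals. Dlk1 is a membrane protein related to Notch ligands, made from the paternal copy, and Meg3 is a long noncoding RNA made from the maternal copy. 5hmC peaks numbered 6 in fibroblasts, 7 on day 3 and 31 in iPS cells, and covered 7005 bp, 7556 bp and 34591 bp of 140 kb. In iPS cells 8.84% of windows of that length had as much. 5mC peaks numbered 23, 28 and 20 and covered 26.68 kb, 33.73 kb and 21.32 kb. The iPS 5mC value was matched by 1.30% of windows, the smallest such share of any interval in that list. Its best-scoring iPS 5mC peak, on chromosome 12 from 110764511 to 110766864, had a score of 448.47 (top 0.603%). Fibroblast 5mC there scored 393.60 (top 3.80%) and day-3 5mC 667.32 (top 3.37%), while the only 5hmC peak on it was an iPS peak with a score of 61.83 (top 83.2%). At higher coordinates, the peaks from 110783857 to 110785119 and from 110787392 to 110788849 kept 5mC at every stage and carried high-scoring iPS 5hmC, with scores of 650.06 (top 2.00%) and 505.48 (top 3.74%). Fibroblast 5hmC was not listed at either.

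Strong fibroblast 5mC peaks of the intervals differed from those of the whole list in how often no iPS peak lay over them. The best-scoring 10% of the fibroblast 5mC list ended at a score of 242.86 and held 10401 peaks, of which 20 lay in the intervals. This limit was chosen after the values were seen. The member nearest above it scored 245.85 and the nearest below it 224.12. All 20 had a day-3 5mC peak, as had 10396 of the 10401. In iPS cells 5 of the 20, or 25.0% (95% exact binomial interval 8.66 to 49.1, counting error only), had neither mark, against 3.22% of the whole 10%. A further 3 had 5hmC and no 5mC, or 15.0% against 22.0%. The other 12, or 60.0%, had both marks. Any iPS 5mC thus lay on 60.0% (36.1 to 80.9), against 74.7%, and none on 40.0% (19.1 to 63.9), against 25.3%. Both of these ranges held the value of the whole 10%. An iPS 5hmC peak lay on 75.0% (50.9 to 91.3), against 93.6%. Of the 5 peaks with neither mark, 2 lay in Igf2r and 1 each in Peg3, Grb10 and Mest, so that they made up 5 of 11 strong peaks at maternally methylated loci and 0 of 9 at paternally methylated loci. This split did not hold at each setting. With lists of equal length 8 of the 20 had neither mark, against 11.4%, and these were 6 of 11 at maternally and 2 of 9 at paternally methylated loci, both of the 2 in Dlk1/Meg3. Among peaks scoring 100 or more 7 of the 20 had neither mark, against 8.10%. These were 6 of 11 and 1 of 9, again in Dlk1/Meg3. Over all fibroblast 5mC peaks, weak ones included, neither mark was listed at 9 of 34 peaks of maternally and 5 of 33 of paternally methylated loci. In the whole list it was 23.5%. Of the best-scoring 10% of the day-3 5mC list, 20 peaks also lay in the intervals, and 4 of them had neither mark in iPS cells, against 5.61% of those in the whole list. The grouping by parental copy was made after the values were seen. It is that of the controlling stretch of each locus and need not hold for each peak. Neighbouring peaks of 1 locus are not independent, and the iPS 5mC list was the shorter one (61171 peaks, against 104011 in fibroblasts).

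**Figure D3:**
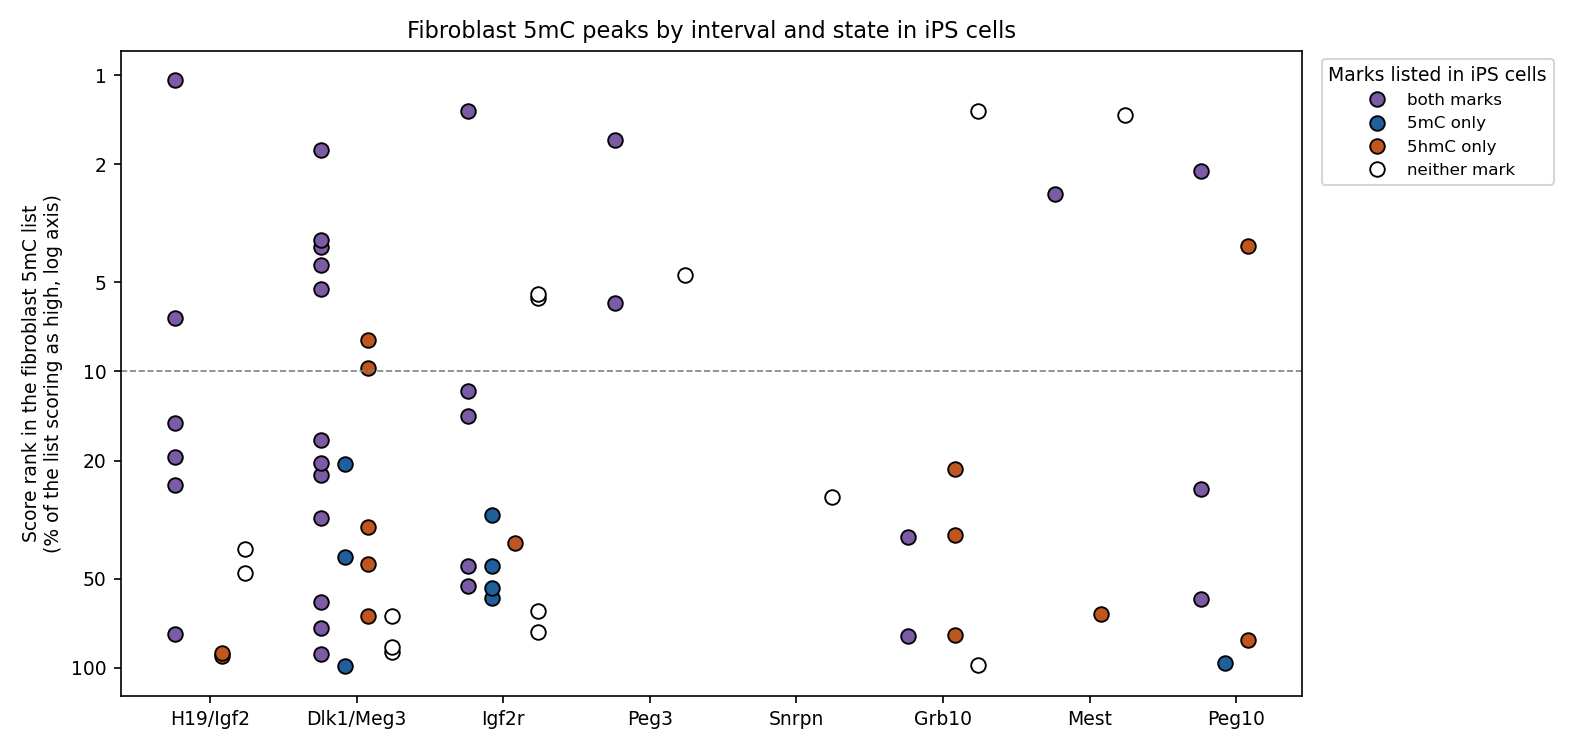
Rank of each fibroblast 5mC peak by score within its list, as the percentage of the list that scored as high (log axis, strongest at the top), by interval and by the marks listed over it in iPS cells. The dashed line is the best-scoring 10%. Of the points above the line, 5 are open (neither mark), all in Igf2r, Peg3, Grb10 and Mest.

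At Mest, whose product resembles an enzyme of the hydrolase family and is made from the paternal copy, the strongest fibroblast 5mC peak lay on chromosome 6 from 30686191 to 30688962. Its score was 636.66 (top 1.36%), and the day-3 5mC peak on it scored 2029.25 (top 0.364%), the highest score in the intervals within that list. No iPS peak of either mark overlapped it. The nearest iPS 5mC peak lay 1.70 kb away, and an iPS 5hmC peak ended 0.13 kb before it. With peaks within 1000 bp joined, no strong Mest peak was without an iPS mark. A second strong peak of the interval, from 30682047 to 30684349 with a score of 477.46, kept an iPS 5mC peak with a score of 89.81 (top 36.3%) and had iPS 5hmC with a score of 261.86. 5mC covered 23.8% of the Mest interval in fibroblasts, 30.6% on day 3 and 3.61% in iPS cells, and 5hmC covered 0%, 5.62% and 15.5%.

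At Grb10, an adaptor protein that restrains growth signalling, the strongest fibroblast 5mC peak lay on chromosome 11 from 11925017 to 11927299, with a score of 645.93 (top 1.32%). The day-3 5mC peak there scored 490.57 (top 5.97%) and neither iPS list had a peak. The nearest iPS 5mC peak was 30.06 kb away. A narrow region just before it, from 11923873 to 11924951, had 5hmC at all 3 stages and 5mC at none, with best scores of 376.67 in fibroblasts, 128.72 on day 3 and 178.18 in iPS cells. Grb10 was the only interval in which 5mC covered less on day 3 than in fibroblasts, with 5.77 kb against 8.49 kb, and in iPS cells it covered 1.78 kb. 5hmC covered 2.08 kb in fibroblasts, 9.77 kb on day 3 and 14.41 kb in iPS cells.

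At Peg3, a zinc finger protein made from the paternal copy, strong 5mC was absent from the iPS list at 1 place and widest in it at another. The fibroblast 5mC peak on chromosome 7 from 6681814 to 6683826 scored 354.09 (top 4.72%), with 316.94 on day 3 (top 12.3%) and no iPS peak of either mark. The nearest iPS 5mC peak was 17.10 kb away. That peak, from 6659868 to 6664712, was the widest of all members at 4845 bp and had the highest iPS 5mC score of the 8 intervals, 808.41 (top 0.199%). It joined 2 fibroblast 5mC peaks with scores of 318.41 and 584.68, and 2 iPS 5hmC peaks with scores of 300.03 and 367.52 lay within it. No fibroblast or day-3 5hmC peak did.

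At Igf2r, the receptor that carries IGF2 to lysosomes and is made from the maternal copy, 2 strong fibroblast 5mC peaks had no iPS mark. They lay on chromosome 17 from 12933923 to 12936235, with a score of 674.67 on day 3 and 324.10 in fibroblasts, and from 12961788 to 12963124, with 837.48 on day 3 and 329.88 in fibroblasts. A day-3 5hmC peak with a score of 216.54 overlapped the first, and no 5hmC peak of any stage the second. The nearest iPS 5mC peak was 6.68 kb from the first and 34.54 kb from the second. The strongest 5mC peak of the interval, from 12880258 to 12882685, kept 5mC, with scores of 646.69 in fibroblasts, 1065.57 on day 3 and 261.22 in iPS cells. The iPS 5hmC peak on it scored 1206.46 (top 0.358%), the highest score in the intervals within that list. Fibroblast 5hmC was not listed there.

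Igf2r was also the interval with the most day-3 5hmC. Its 5hmC peaks numbered 1 in fibroblasts, 14 on day 3 and 11 in iPS cells and covered 0.69 kb, 17.71 kb and 13.79 kb, and 7.80% of 100 kb windows had as much as the day-3 value. Among the 14 day-3 peaks, 6 were on iPS 5hmC, near the 48.3% of the whole day-3 5hmC list, and 6 were on day-3 5mC, near the 40.4% of the list. In the part from 12945122 to 12959887, 5hmC was listed in 8 joined regions on day 3 or in iPS cells, and 5mC was listed there at no stage. That part was picked after the values were seen. Regions with 5hmC and no 5mC at any stage made up 9 of the 25 joined regions of Igf2r, against 41.4% in the genome.

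Peg10, a gene derived from a retrotransposon and needed in the placenta, and Snrpn, a protein of the splicing machinery, are both made from the paternal copy. At Peg10 the fibroblast 5mC peak on chromosome 6 from 4697274 to 4699263 had a score of 394.95 (top 3.77%) and 490.87 on day 3. In iPS cells it had no 5mC and a weak 5hmC peak with a score of 57.99 (top 88.2%). The stronger 5mC peak of the interval, from 4704405 to 4706256, kept 5mC, with scores of 520.18 in fibroblasts, 1224.76 on day 3 and 184.90 in iPS cells, and gained an iPS 5hmC peak with a score of 421.43. Snrpn held 4 peaks in all. Its 1 fibroblast 5mC peak, on chromosome 7 from 67148494 to 67149610, scored 139.50 (top 26.5%) and lay below the limit for strong peaks. The day-3 5mC peak there scored 358.07 (top 10.1%), a fibroblast 5hmC peak with a score of 65.31 overlapped it, and neither iPS list had a peak in the interval. The nearest iPS 5mC peak was 1094.97 kb away and the nearest iPS 5hmC peak 80.86 kb away.

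Over all fibroblast 5mC peaks of the intervals, weak ones included, more kept 5mC in the iPS list than in the whole list. This difference did not stand with stricter lists. An iPS 5mC peak lay on 39 of the 67, or 58.2% (45.5 to 70.2), against 39.4% of the whole list. Among peaks scoring 100 or more the share was 42.5% (27.0 to 59.1), against 27.6%. With lists of equal length it was 61.5% (44.6 to 76.6), against 48.3%. Under both settings the share stayed the higher one, but the range in brackets held the value of the whole list. An iPS 5hmC peak lay on 45 of the 67, or 67.2% (54.6 to 78.2), against 67.2% of the whole list. A day-3 5mC peak lay on 91.0%, against 89.7%. On day 3, 48 peaks, or 71.6% (59.3 to 82.0), had 5mC alone, against 61.2%, and 13, or 19.4%, had both marks, against 28.5%. Only 2, or 2.99%, had 5hmC alone, against 2.37%, and 4, or 5.97%, had neither, against 7.97%. In iPS cells 31 of the 67, or 46.3%, had both marks, against 30.0% of the list. A further 14, or 20.9% (11.9 to 32.6), had 5hmC without 5mC, against 37.1%. Neither mark was listed at 14, or 20.9%, against 23.5%, and 5mC alone at 8, or 11.9%, against 9.32%. Members with iPS 5mC had a median fibroblast score of 155.45 and those without it 102.50, and in the whole list these medians were 122.32 and 78.22. Of the 78 day-3 5mC peaks, 41, or 52.6% (40.9 to 64.0), had 5mC in iPS cells, against 29.4%.

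**Figure D4:**
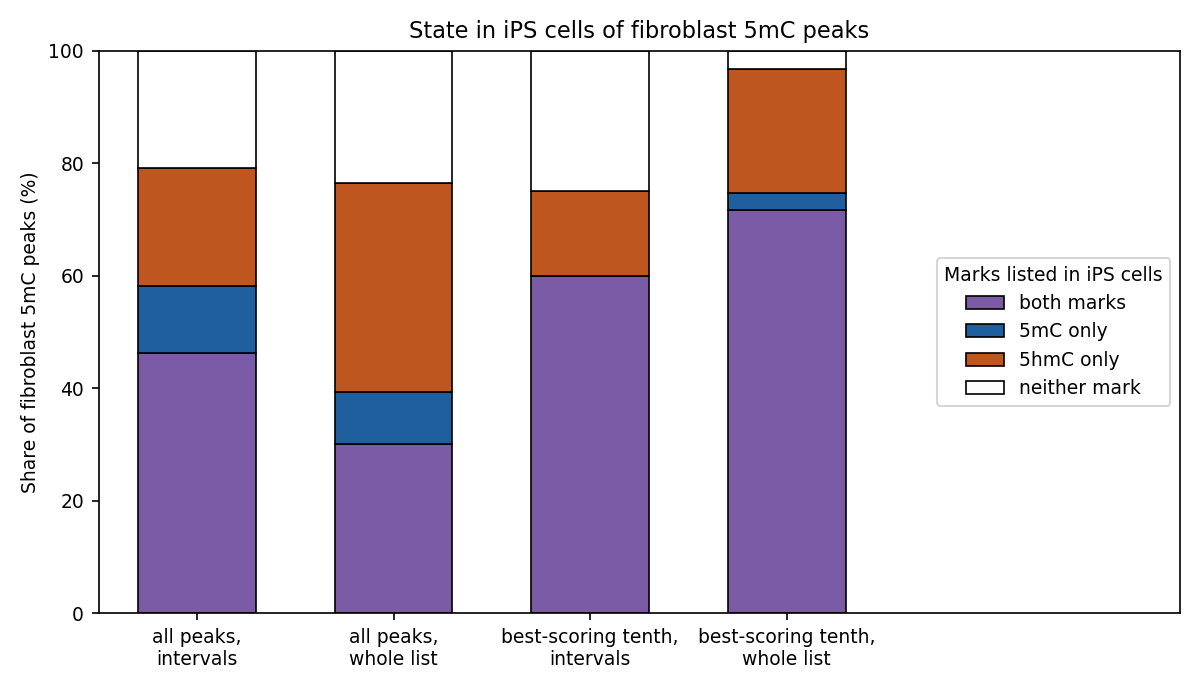
Share of fibroblast 5mC peaks by the marks listed over them in iPS cells, for all peaks and for the best-scoring 10%, each in the 8 intervals and in the whole list. Neither mark was listed at 20.9% of interval peaks and 23.5% of the list, and at 25.0% and 3.22% of the best-scoring 10%.

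Most iPS 5hmC in the intervals was not listed in fibroblasts, as in the whole list. Of the 89 iPS 5hmC peaks, 71, or 79.8% (69.9 to 87.6), had no fibroblast 5hmC peak, against 84.3%, and 56, or 62.9%, were in neither earlier 5hmC list, against 58.7%. Of the 24 fibroblast 5hmC peaks, 19, or 79.2% (57.8 to 92.9), were present in iPS cells, against 63.7%, and 10, or 41.7%, on day 3, against 35.9%. Of the 42 day-3 5hmC peaks, 24, or 57.1%, were present in iPS cells, against 48.3%. A fibroblast or day-3 5mC peak lay under 53 of the 89, or 59.6%, against 56.9%. On day 3, 18 of 42 5hmC peaks, or 42.9%, were in neither other 5hmC list, against 49.3%. Of the 78 day-3 5mC peaks, 13, or 16.7% (9.18 to 26.8), were in neither other 5mC list, against 38.3%.

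Within a stage, 5hmC peaks of iPS cells lay on 5mC peaks more often in the intervals than in the whole list. The same difference in fibroblasts did not stand with stricter lists. A 5mC peak of the same stage lay on 13 of 24 fibroblast 5hmC peaks, or 54.2% (32.8 to 74.4), against 27.2% of the list. On day 3 it lay on 17 of 42, or 40.5% (25.6 to 56.7), against 40.4%. In iPS cells it lay on 40 of 89, or 44.9% (34.4 to 55.9), against 23.5%. Read from the 5mC side, iPS 5hmC lay on 39 of 54 iPS 5mC peaks, or 72.2% (58.4 to 83.5), against 67.2%, a value within that range. Peaks of iPS 5mC covered 9.68% of the intervals and 2.32% of the genome, and the part of this in the overlap was not tested. Fibroblast 5hmC also lay where later stages had 5mC, at 16 of 24 peaks, or 66.7%, on day 3, against 41.4%. For iPS 5mC such peaks numbered 14, or 58.3% (36.6 to 77.9), against 24.7%. Neither share was counted with stricter lists. For 5mC of the same stage, keeping peaks that scored 100 or more left the iPS share at 25.9% (15.3 to 39.0), against 13.6%. The fibroblast share was then 22.2% (6.41 to 47.6), against 18.4%. With lists of equal length the iPS share was 56.2% (37.7 to 73.6), against 36.3%, and the fibroblast share 25.0% (9.77 to 46.7), against 13.2%. Both of these fibroblast intervals held the value of the whole list.

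Overlapping peaks of the 6 lists, members or not, were joined into regions, of which 132 overlapped an interval. Peaks of all 6 lists came together in 4 of the 132, or 3.03% (0.832 to 7.58), against 1.36% of such regions in the genome. They lay in Peg10 from 4712030 to 4713045, in Grb10 from 11893936 to 11895029, in Igf2r from 12925697 to 12927767 and at the end of Dlk1/Meg3 from 110819063 to 110823260. In the last of these the day-3 5hmC peak lay beyond the border of the interval and was not a member. At Peg10 the 5hmC scores were 718.51 in fibroblasts, 418.50 on day 3 and 611.34 in iPS cells, and the 5mC scores were 144.56, 139.53 and 81.91. Keeping peaks that scored 100 or more, or lists of equal length, left 0 such regions. 5mC was listed at all 3 stages in 30 of the 132 regions, or 22.7%, against 12.6%. 5mC was listed in fibroblasts and on day 3 but not in iPS cells in 22, or 16.7%, against 16.5%, and 10 of these, or 7.58% of the regions, had no iPS 5hmC, against 5.99%. 5hmC was listed in iPS cells alone in 48, or 36.4% (28.2 to 45.2), against 32.4%.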

How the data were processed

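Genomic DNA of 3 stages was precipitated with an antibody against 5hmC or 5mC after adapter ligation and sequenced, per the labels' protocols. Per the submitters' processing notes, the tools were CASAVA 1.8, Bowtie 0.12.7 and MACS 1.4.1, and the build was mm9. The deposited files hold 1 peak list per library, with positions and a score per peak, the authors' peak caller's own value. The score's lowest value was 50.00 or 50.01 in each list. Scores depend on depth, which is unknown, so peaks were ranked within their list only, and top 1% means that 1% of the list scored as high. Whether an input library was used, the caller's settings and the handling of duplicate reads are not stated in the labels.

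Members and lists were chosen with earlier results of these data known. Libraries were grouped by their titles, with 1 per stage and mark. Overlaps counted from 1 bp, covered length was trimmed to the interval, and 95% exact binomial intervals cover counting error only. Windows are non-overlapping stretches of the interval's length, up to the last peak of each chromosome. Those with no peak in any of the 6 lists were left out, and those empty in only some lists were kept. For stage differences they are 100 kb long and only those that differ were counted. Peaks named were the best-scoring of each list and interval, regions in all 6 lists, the longest regions with 5mC at all stages and peaks of at least 3 kb. The best-scoring 10%, the sites without iPS marks and the part of Igf2r without 5mC were chosen after their values were seen. Whole-list overlaps matched bedtools 2.31.1 in 30 of 30 list pairs, and simulated peaks were placed with 0 errors. Python 3.11.15 was used with scipy 1.17.1 for intervals, pandas 2.3.3 and numpy 2.4.6 for tables and matplotlib 3.10.9 for plots. Alternatives are given in the closing section.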

Additional observations from a re-analysis of the deposited data

How the results depend on the processing

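No paired analysis was possible because there was 1 library per stage and mark, and no replicate could be left out. Among peaks scoring 100 or more, members numbered 24 in day-3 5hmC, 58 in iPS 5hmC, 40 in fibroblast 5mC and 18 in iPS 5mC. With each list cut to its 42301 best-scoring peaks (equal length) they numbered 14 in day-3 5hmC, 32 in iPS 5hmC, 39 in fibroblast 5mC and 37 in day-3 5mC. Regions in all 6 lists numbered 0 under both settings and 7 with peaks within 1000 bp joined. Among peaks scoring 100 or more, fibroblast 5mC was kept in iPS cells at 42.5%, against 27.6% of the list. At day 3 it was kept at 97.5%, against 93.6%. Fibroblast 5hmC was present in iPS cells at 41.7% with lists of equal length, against 21.3% of the list. 5hmC peaks on 5mC peaks made up 25.9% in iPS cells and 22.2% in fibroblasts among peaks scoring 100 or more, and 56.2% in iPS cells and 25.0% in fibroblasts with lists of equal length. Windows of 50 kb had more 5hmC in iPS cells than in fibroblasts in 81.0% and less 5mC in 82.4%. Strong fibroblast 5mC peaks with neither mark in iPS cells numbered 3 of 13 in the best-scoring 5%, against 2.67% of that share of the list, and 8 of 20 with lists of equal length, against 11.4%. Such peaks at paternally methylated loci numbered 2 of 9 with lists of equal length. They numbered 1 of 9 among peaks scoring 100 or more, against 8.10% of the list's strong peaks. With overlap of at least 50% they numbered 1 of 9, against 6.71%. Under the other settings they numbered 0, against 2.67% to 6.59%. Those without iPS 5mC numbered 4 of 13 in the best-scoring 5%, against 20.7% of that share of the list.

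The difference in covered length between iPS cells and fibroblasts changed sign in 5 cases. With lists of equal length it was 1.13 kb for Dlk1/Meg3 5mC, -2.94 kb for H19/Igf2 5hmC and 0.62 kb for H19/Igf2 5mC. It was 0.25 kb for H19/Igf2 5mC with peaks joined and -0.34 kb for Peg3 5mC among peaks scoring 100 or more. The cause was not tested. Of 108 counts and shares under an alternative, 85 stayed within 1.5 times (counts) or the exact interval (shares) and the 23 above did not. Of 64 differences in covered length, 48 stayed within 1.5 times, 11 moved further without changing sign and 5 changed sign. Membership by peak centre and overlap by at least 50% or by the centre moved none. The settings for strong peaks were added after the data were seen. Unknown depth limits all of these, since a site missing from a list may hold a mark too weak for the caller.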

Other observations

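Peaks of at least 3 kb were listed in 3 intervals. Besides the iPS 5mC peak in Peg3, these were a day-3 5mC peak in H19/Igf2 of 3886 bp and, in Dlk1/Meg3, 5mC peaks of 3293 bp at day 3 and 3098 bp in fibroblasts. The others lay at the border of Dlk1/Meg3, a fibroblast 5hmC peak of 3914 bp and 5mC peaks of 4119 bp at day 3 and 3751 bp in fibroblasts. In the iPS 5mC list, 9 of the 54 members, or 16.7%, were in neither earlier 5mC list, against 16.6% of the list. 5hmC alone, with no 5mC at any stage, was listed in 45 of the 132 joined regions, or 34.1%, against 41.4%.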
